A study of Rattus norvegicus and Ovis aries with 113 samples.

Results

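Sperm RNA of 5 post-pubertal male sheep (Ovis aries, animals 687, 688, 690, 694 and 699) was set against sperm RNA of 15 post-pubertal male Sprague Dawley rats (Rattus norvegicus, animals 3 to 17), which are 20 of the 113 libraries of the series. The members are the sheep columns named for sperm and all columns of the rat sperm count table, joined on upper-cased gene symbols that occur once in each species. The join gave 15703 shared symbols from 31304 sheep and 38675 rat entries, and no placeholder (LOC) or ribosomal RNA symbol was among them. The series looks for genes that tie the brain to reproduction, and no animal was treated. Rat seminal fluid was taken from animals just after euthanasia, and how the sheep samples were collected is not given in the sources used here. Sheep RNA was extracted with TRIzol and made into libraries with a Kapa stranded mRNA kit, whereas rat RNA came from a Zymo column kit and a Watchmaker stranded mRNA kit. Species, collection, extraction, library kit and annotation cannot be told apart in any value given here.

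Sperm are close to silent. The RNA they carry was made mostly by spermatids, the cells in which transition proteins and then protamines replace the histones and in which the outer dense fibres and fibrous sheath of the tail are built. Sperm then mature in the epididymis, where principal cells secrete proteins onto them and clear cells acidify the fluid, and they leave through the vas deferens. Seminal fluid also holds shed duct epithelium, leukocytes and squamous cells of the outer tract, and each such cell holds far more RNA than a sperm. Marker lists for these sources were read in both species. In bulk RNA, fewer cells of a type and less RNA per cell cannot be told apart.

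Depth differed between the species. Shared symbols held 2.31 to 25.1 M counts (M, 1000000) in the sheep libraries, most in sheep 688, and 9.66 to 42.3 M in the rat libraries. They made up 6.15 to 51.0% of all counts of a sheep library and 51.2 to 78.0% of a rat library. Rats 7 and 14 were least like the other rats, with median Spearman correlations to them of 0.766 and 0.731 over all shared symbols, against 0.894 to 0.971 for the other 13. Levels are given as counts per 1000000 shared-symbol counts (CPM), and list levels as percent of those counts. Sheep values stand in the order 687, 688, 690, 694, 699, and rat values as the range and median over 15 animals. Fold changes are log2, sheep minus rat, ± SE, from edgeR's quasi-likelihood test with TMM factors. The TMM factor of sheep 688 was 0.311, against 0.769 to 1.22 for the other libraries. Printed CPM are not scaled by these factors, so sheep 688 stands higher in the fold changes than its CPM show.

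The sheep and rat profiles shared most of the genes they contained but not the order of their levels. A gene was taken as detected where at least 80% of a species' libraries reached 1 CPM. By that rule 8270 genes were detected in both species, which is 84.3% of the genes detected in sheep and 77.0% of those detected in rat. Another 1543 were detected in sheep alone and 2472 in rat alone. Spearman correlations across genes had a median of 0.811 over the 10 pairs of sheep libraries, 0.930 over the 105 pairs of rat libraries and 0.485 over the 75 pairs between species. The highest pair between species, at 0.608, lay below the lowest pair within a species, at 0.681. Over the 8270 genes detected in both, the median between species was 0.232. These correlations describe libraries that share preparation within a species and carry no test.

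Of 14146 genes tested, 3395 (24.0%) were called higher in sheep and 5281 (37.3%) higher in rat, where a call needs an edgeR adjusted p under 0.05 and a difference of 1 or more on the log2 scale. Among the tested genes, 1071 (7.57%) were called higher in sheep with no overlap between the groups, and 3777 (26.7%) higher in rat with no overlap. The balance of directions depends on the scaling: 39.1% of called genes were higher in sheep with TMM factors, 54.0% with RLE factors and 30.6% with plain totals. The median fold change of all genes was -0.69, 0.10 and -1.21 under these scalings. Lists are therefore read against the median of -0.69 and against the shares of 24.0% and 37.3%.

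**Figure D1:**
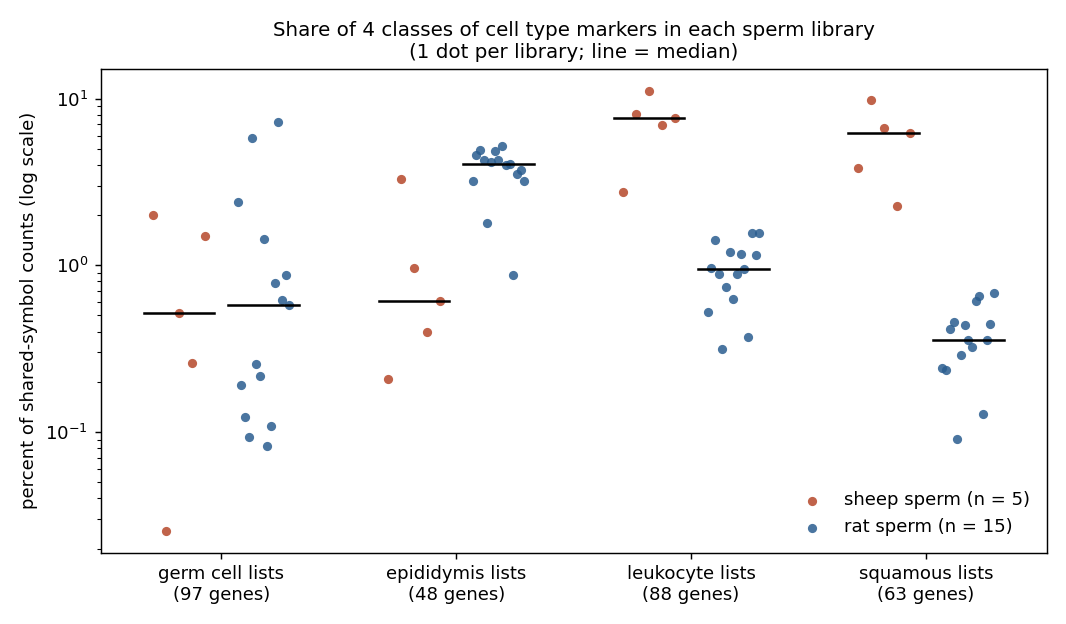
Summed level of the germ cell (97), epididymis (48), leukocyte (88) and squamous (63) marker genes in each library, in percent of shared-symbol counts on a log axis, with 1 dot per library and a line at the median. Germ cell shares overlapped between the species, all 5 sheep lay above all 15 rats for leukocyte and squamous genes, and only sheep 688 and 690 reached the range of the rats for epididymis genes.

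Germ cell transcripts were present in both species and varied widely among animals of each. The 97 measured genes of 5 germ cell lists held 1.99, 0.0256, 0.515, 0.259 and 1.5% of the sheep counts and 0.0820 to 7.22% with a median of 0.581% of the rat counts. Sheep 687 and 699 were the high sheep and sheep 688 the low one, while rats 14, 7 and 3 stood above the other rats at 7.22, 5.78 and 2.41%. Of 95 genes tested, 5 were called higher in sheep and 18 higher in rat, beside the 24.0% and 37.3% of all genes, and the median fold change was -1.61. In brain of the same animals the 5 chromatin genes held 5.63e-06% of the counts in sheep and 2.70e-05% in rat, far below the sperm libraries of either species. Here and below, sheep brain is the sum of 10 brain regions per animal, and rat brain is the brain library of each male rat.

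Protamine and transition protein genes are switched on in round spermatids, where the cAMP-responsive factor CREM is known to act. The 250 bases before the start of rat Tnp1, Tnp2 and Prm1, whose levels the germ cell results turn on, are shown from RefSeq (GRCr8), 5′ to 3′ on the strand of the gene. Capitals mark the cAMP response element TGACGTCA, a palindrome that reads the same on both strands.
Tnp1, chr9:82044279-82044528, minus strand: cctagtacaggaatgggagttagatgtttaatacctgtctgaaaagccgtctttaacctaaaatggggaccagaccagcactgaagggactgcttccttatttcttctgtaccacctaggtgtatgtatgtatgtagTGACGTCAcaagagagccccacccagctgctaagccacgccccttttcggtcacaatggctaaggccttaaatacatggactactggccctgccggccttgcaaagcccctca
Tnp2, chr10:5386485-5386734, plus strand: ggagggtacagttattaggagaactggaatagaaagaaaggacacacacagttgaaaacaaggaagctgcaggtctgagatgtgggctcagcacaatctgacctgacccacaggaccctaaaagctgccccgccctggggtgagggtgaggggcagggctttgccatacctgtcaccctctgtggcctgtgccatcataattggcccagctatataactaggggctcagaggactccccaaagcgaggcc
Prm1, chr10:5378490-5378739, plus strand: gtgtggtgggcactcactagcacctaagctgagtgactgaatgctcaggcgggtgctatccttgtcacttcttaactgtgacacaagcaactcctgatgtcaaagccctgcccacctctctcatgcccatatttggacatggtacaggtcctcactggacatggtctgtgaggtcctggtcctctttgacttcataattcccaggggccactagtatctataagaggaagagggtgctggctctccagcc
The element lies 113 to 106 bases before the start of Tnp1, and these exact letters are not in the windows of Tnp2 and Prm1. Variants of the element were not searched for, so their presence in these windows is not excluded. The exact letters occur in 1.59% of 33469 rat promoter windows of this length, and in 3 of the 80 germ cell list genes with a promoter entry.

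PRM1, the protamine that packs the DNA of the sperm head, was at 8886, 81.2, 3183, 749.8 and 7523 CPM in sheep and 14.0 to 7647 CPM with a median of 154 in rats. Sheep 687 and 699 were near rats 7 and 14, which had 7647 and 6271 CPM, and sheep 688 lay below the rat median. PRM2, the protamine made as a longer precursor, was at 633, 3.55, 84.9, 61.2 and 428 CPM in sheep and 0.984 to 1002 CPM with a median of 18.7 in rats. PRM3, a spermatid gene of the same cluster, was at 1113, 7.57, 407, 358 and 584 CPM in sheep and 0.518 to 1008 CPM with a median of 11.6 in rats. TNP1, a transition protein, was at 603, 2.43, 36.8, 75.1 and 168 CPM in sheep and 0 to 6593 CPM with a median of 10.1 in rats. Its partner TNP2 was at 791, 4.35, 86.7, 110.3 and 465 CPM in sheep and 2.34 to 7008 CPM with a median of 70.3 in rats. In all 5 genes sheep 687 was the highest sheep, sheep 688 the lowest, and rats 7 and 14 the highest rats, and the groups overlapped. None of the 5 was called by edgeR, and 0 passed at an unadjusted p of 0.05. The fold change of PRM1 was 1.82 ± 1.15 (adjusted p = 0.174) and that of TNP1 -2.32 ± 2.16 (adjusted p = 0.359). DESeq2 called 2 and limma's voom 3 of them higher in sheep. Without rat 7 alone PRM1 (2.49) and PRM3 (3.04) were called higher in sheep. Without rats 7 and 14 PRM1, PRM2 and PRM3 were called higher in sheep, at 3.63, 2.58 and 4.53.

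Tail genes stood apart from chromatin genes in the rats. ODF1, the main protein of the outer dense fibres, was at 174, 3.03, 33.8, 44.7 and 254 CPM in sheep and 184 to 6547 CPM with a median of 846 in rats (log2 fold change -4.05 ± 1.08, adjusted p = 0.00245). OAZ3, an antizyme made in spermatids, was at 36, 0.359, 3.47, 6.6 and 71.3 CPM in sheep and 100.1 to 6764 CPM with a median of 829 in rats (log2 fold change -5.82 ± 1.38, adjusted p = 0.000922). SMCP, a cysteine-rich protein around the midpiece mitochondria, was at 110.1, 0.997, 66.7, 30.6 and 177 CPM in sheep and 123 to 4706 CPM with a median of 619.8 in rats (log2 fold change -3.84 ± 1.06, adjusted p = 0.00320). The groups did not overlap for OAZ3, and sheep 699 alone reached the rat range for ODF1 and SMCP. With these 3, AKAP3 and ROPN1L of the fibrous sheath and CIMAP1A made up the 6 of 24 tested tail genes called higher in rat. TSSK6, a spermatid kinase, was the 1 called higher in sheep, at 3299.5, 16.9, 285, 220.0 and 1701 CPM in sheep and 22.6 to 1277 CPM with a median of 60.7 in rats (log2 fold change 2.27 ± 0.89, adjusted p = 0.0312). TSSK6 lost its call without sheep 687 (1.54) or sheep 699 (1.94). Tssk6 overlaps Gatad2a in the rat annotation, and the strand setting of the counting is not given in the sources used here.

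These tail counts depend on the fit and on few libraries. With RLE factors 3 tail genes were called higher in rat, without sheep 688 or sheep 694 3, and with voom 0 higher in rat and 5 in sheep, with ODF1, OAZ3 and SMCP not called (-2.62, -4.58 and -2.37). Over all germ cell genes, the counts higher in sheep and in rat were 22 and 11 without rats 7 and 14, and 35 and 4 with voom.

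**Figure D2:**
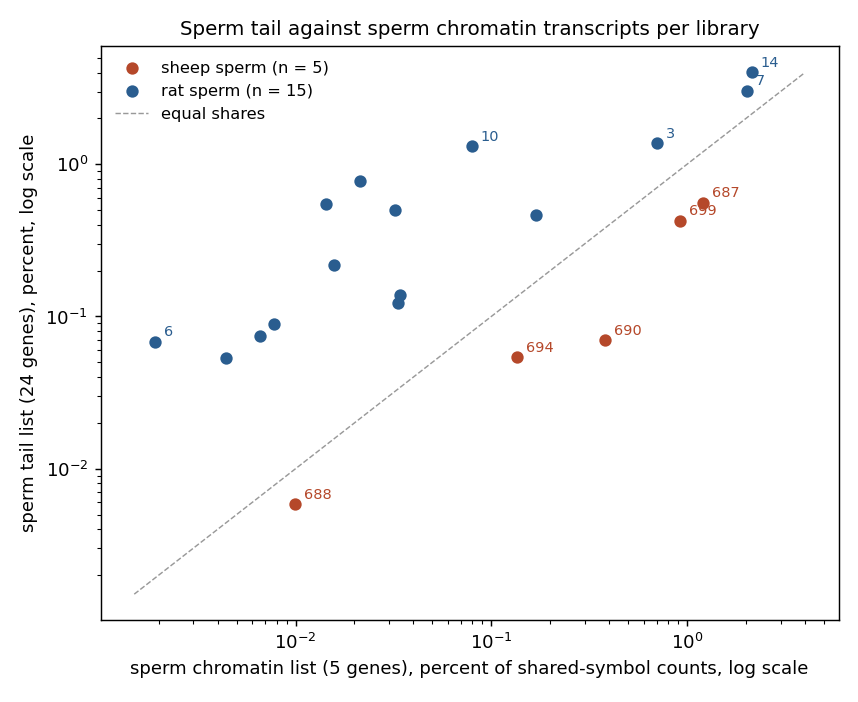
Summed level of the 24 sperm tail genes against that of the 5 sperm chromatin genes, in percent of shared-symbol counts on log axes, with 1 dot per library and a dashed line where the shares are equal. All 5 sheep lie on the chromatin side of the line and all 15 rats on the tail side.

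A ratio within a library does not depend on scaling. Counts of the 24 tail genes divided by those of the 5 chromatin genes were 0.464, 0.588, 0.183, 0.400 and 0.465 in the sheep. In the rats the ratio ran from 1.5 to 38.4 with a median of 11.5, so the species did not overlap. Rats 7, 14 and 3, with the most germ cell RNA, had the lowest rat ratios, at 1.5, 1.88 and 1.97. ODF1 over PRM1 alone was 0.0106 to 0.0596 in the sheep and 0.745 to 23.3 in the rats. Transcript length was not corrected for, and the ratio was chosen after its values were seen.

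Genes of the acrosome and of fusion with the egg gave 4 calls higher in rat and 1 higher in sheep among 22 (median -1.43), but 0 and 9 with voom. IZUMO4, a relative of the fusion protein IZUMO1, was at 577, 4.19, 84.1, 55.4 and 363 CPM in sheep and 0 to 144 CPM with a median of 3.38 in rats (log2 fold change 3.17 ± 1.09, adjusted p = 0.0147). Without sheep 687 it was 2.63 and not called, and rat Izumo4 overlaps Mob3a. ACR, the acrosomal protease acrosin, was at 0, 0, 0, 0.348 and 1.84 CPM in sheep and 0.101 to 91.3 CPM with a median of 1.01 in rats (log2 fold change -4.41 ± 1.91, adjusted p = 0.0493). Both genes overlapped between the species, and ACR lost its call when any of several single libraries was left out (-4.46 to -3.46), sheep 687, 688, 690 and 694 among them, and with RLE factors (-3.84), DESeq2 (-2.71) and voom (-0.31). CRISP2, a secretory protein of the acrosome and tail, was at 78.2, 7.53, 62.0, 63.2 and 131 CPM in sheep and 4.44 to 2395 CPM with a median of 128 in rats and was not called (log2 fold change -2.24 ± 1.37, adjusted p = 0.158). ACRBP, the acrosin binding protein (log2 fold change -1.17 ± 0.73, adjusted p = 0.167), and SPESP1 of the equatorial segment (log2 fold change -0.46 ± 1.69, adjusted p = 0.825) were not called either.

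Ion channels of sperm gave 2 calls higher in rat, CATSPERB and SLC26A8, and 0 higher in sheep among 15 (0 in sheep also at an unadjusted p of 0.05 and with DESeq2). The calls higher in rat numbered 0 with RLE factors, upper quartile factors or voom and 1 with DESeq2 or without sheep 688. Those higher in sheep numbered 4 with voom and 4 without rats 7 and 14. CATSPERG, a subunit of the calcium channel of the tail, was at 212, 4.15, 46.8, 43.6 and 215 CPM in sheep and 7.98 to 449.7 CPM with a median of 20.5 in rats and was not called (log2 fold change 0.45 ± 0.89, adjusted p = 0.675). SLC26A8, an anion transporter, was at 0, 0.359, 2.60, 18.4 and 2.61 CPM in sheep and 8.68 to 131 CPM with a median of 13.1 in rats (log2 fold change -2.44 ± 1.02, adjusted p = 0.0408), a call lost without sheep 687, 688, 690 or 699 or some single rats (-2.32 to -2.03), and with RLE factors (-1.74), DESeq2 (-0.52) and voom (-1.90). Of the same calcium channel, CATSPERZ (log2 fold change 0.01 ± 1.21, adjusted p = 0.993) and CATSPER2 (log2 fold change -3.07 ± 1.38, adjusted p = 0.0578) were not called, though CATSPER2 was called higher in rat without rat 16 (-3.17).

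Among 29 genes of meiotic and earlier germ cells, 3 were called higher in sheep and 6 higher in rat. That balance turned with the fit: the counts were 5 and 2 with RLE or upper quartile factors, 6 and 3 with DESeq2, 14 and 4 with voom, and 10 and 4 without rats 7 and 14. TEX15, needed in meiosis, was at 354, 1.79, 67.2, 128 and 70.8 CPM in sheep and 0 to 7.09 CPM with a median of 0.115 in rats (log2 fold change 6.73 ± 1.16, adjusted p = 3.33e-05). Every sheep but 688 was above the rats. ID4, a marker of spermatogonial stem cells that somatic cells also make, was at 2.50, 1.51, 3.47, 3.65 and 1.84 CPM in sheep and 48.3 to 93.4 CPM with a median of 65.3 in rats, with no overlap (log2 fold change -4.09 ± 0.29, adjusted p = 1.37e-10). MAEL (log2 fold change -2.55 ± 2.05, adjusted p = 0.287) and TDRD6 (log2 fold change -4.82 ± 2.42, adjusted p = 0.0861), of germ granules, were not called. Somatic cells of the testis left little RNA, as Sertoli and Leydig genes held 0.00272, 0.00353, 0.00581, 0.00626 and 0.00280% in sheep and 0.00807 to 0.0313% with a median of 0.0176% in rats. CTSL, a protease of many cells, was the main one of these in the rats, at 4.5, 21.3, 7.37, 14.1 and 3.99 CPM in sheep and 47.0 to 288 CPM with a median of 121 in rats (log2 fold change -2.72 ± 0.62, adjusted p = 0.000616). HSD17B3, which makes testosterone, was at 0, 5.74, 25.6, 17.6 and 9.22 CPM in sheep and 0 to 0.567 CPM with a median of 0 in rats (log2 fold change 7.33 ± 1.2, adjusted p = 1.74e-05).

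Epididymis and vas deferens genes were a larger part of the rat libraries. The 48 measured genes of 3 lists held 0.209, 3.29, 0.963, 0.396 and 0.613% in sheep and 0.870 to 5.18% with a median of 4.04% in rats. Rats 14 and 7, with the most germ cell RNA, had the lowest shares of the rats, at 0.870 and 1.79%. Sheep 688, with the least germ cell RNA, had the highest share of the sheep. Of 44 tested, 11 were called higher in sheep and 21 higher in rat (median -2.19, or -1.84 with genes at 0 in a species set to their bound).

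CES5A, a carboxylesterase of the epididymis (rat chr19:11198829-11504887, GRCr8), was at 0, 0, 0, 1.39 and 0 CPM in sheep and 2324 to 14600 CPM with a median of 11229 in rats (log2 fold change -14.83 ± 1.18, adjusted p = 7.82e-10). NPC2, a sterol carrier in epididymal fluid, was at 22.0, 60.0, 52.0, 45.9 and 45.0 CPM in sheep and 795 to 6047 CPM with a median of 3961 in rats (log2 fold change -5.47 ± 0.62, adjusted p = 1.12e-07). AQP9, a water and solute channel of principal cells, was at 12.5, 0.957, 0.867, 3.82 and 1.08 CPM in sheep and 101 to 965 CPM with a median of 601 in rats (log2 fold change -7.10 ± 0.73, adjusted p = 3.11e-08). None of these 3 overlapped, and NPC2 was the highest of them in every sheep. SPINT3, a protease inhibitor, had 0 counts in the sheep and 32.2 to 3321 CPM with a median of 1039 in the rats, at least 19077-fold higher against a floor of 3 counts over the sheep group. Rat Spint3 overlaps Wfdc2.

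CRISP3 went the other way, at 1628, 32227, 9013, 3507 and 5541 CPM in sheep and 548 to 6814 CPM with a median of 3883 in rats (log2 fold change 2.88 ± 0.63, adjusted p = 0.000424). It is made by several male glands and by neutrophils. The groups overlapped, and sheep 688 held far more of it than any other animal. Without sheep 688 the fold change was 0.73 and not called. Without CRISP3 the principal cell list held 0.0298, 0.0166, 0.0162, 0.0194 and 0.0183% in sheep and 0.442 to 2.48% with a median of 1.82% in rats, with no overlap. The other 8 principal cell genes called higher in sheep were far below CRISP3 in both species. RNASE9 was at 22.5, 5.74, 13.0, 7.99 and 14.6 CPM in sheep and 0 to 0.870 CPM with a median of 0.152 in rats (log2 fold change 6.54 ± 0.81, adjusted p = 4.47e-07). ADAM7, a membrane protein passed to sperm, was at 22.2, 0.199, 14.3, 18.2 and 0.461 CPM in sheep and 0 to 8.49 CPM with a median of 0.243 in rats (log2 fold change 2.99 ± 1.21, adjusted p = 0.0357), not called without sheep 687, 690 or 694 (2.71 to 2.75) or with plain totals (2.79). GPX5, a peroxidase of the epididymis, was at 0.749, 0.439, 1.30, 1.91 and 0 CPM in sheep and 0 to 0.840 CPM with a median of 0 in rats (log2 fold change 3.65 ± 1.21, adjusted p = 0.0120).

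AQP2, a water channel known from kidney and vas deferens (rat chr7:132590286-132595321), was at 6.24, 11.9, 6.93, 0 and 17.7 CPM in sheep and 2914 to 28341 CPM with a median of 16753 in rats (log2 fold change -9.86 ± 1.21, adjusted p = 3.74e-07). It had the highest rat mean of all genes on the cell lists. TRPV6, a calcium channel, had 0 counts in the sheep and 162 to 1249 CPM with a median of 907 in the rats, at least 12409-fold higher. PAX2, a transcription factor of duct epithelium, was at 3.50, 0.757, 4.77, 1.56 and 0 CPM in sheep and 71.5 to 657 CPM with a median of 298 in rats (log2 fold change -6.86 ± 0.74, adjusted p = 6.26e-08). These 3 did not overlap between species. CFTR, a chloride channel of ducts, was higher in sheep, at 26.2, 67.1, 108, 32.5 and 54.1 CPM in sheep and 0 to 39.5 CPM with a median of 0.660 in rats (log2 fold change 4.25 ± 1.17, adjusted p = 0.00329). NHERF1, a scaffold under the apical membrane, was not called (log2 fold change -0.69 ± 0.47, adjusted p = 0.202), but was higher in rat without sheep 688 (-1.74).

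Clear and narrow cells left little RNA, at 0.00462, 0.0138, 0.0186, 0.00705 and 0.0137% in sheep and 0.00613 to 0.0835% with a median of 0.0194% in rats, and 5 of 8 genes were called higher in rat. ATP6V1C2, a proton pump subunit, was at 39.5, 10.1, 29.5, 13.2 and 25.5 CPM in sheep and 34.1 to 169 CPM with a median of 71.5 in rats (log2 fold change -1.39 ± 0.38, adjusted p = 0.00312). FOXI1, the transcription factor of these cells, was at 0, 1.04, 3.90, 1.74 and 0 CPM in sheep and 3.11 to 132 CPM with a median of 24.1 in rats (log2 fold change -3.83 ± 0.96, adjusted p = 0.00148). ATP6V1B1, another pump subunit, was the 1 called higher in sheep, at 4.5, 111, 105, 36.8 and 90.2 CPM in sheep and 2.64 to 117 CPM with a median of 20.1 in rats (log2 fold change 2.42 ± 0.62, adjusted p = 0.00186). All 3 overlapped. The call of ATP6V1C2 was lost with RLE factors, upper quartile factors, the 5 CPM filter and DESeq2 (-0.52, -0.73, -0.95 and -0.52), and that of ATP6V1B1 with plain totals (1.35). Of the accessory gland list 7 of 28 genes were matched. ACP3, prostatic acid phosphatase, was at 305, 1568, 1278, 345 and 1109.9 CPM in sheep and 53.2 to 306 CPM with a median of 187 in rats (log2 fold change 3.22 ± 0.44, adjusted p = 1.6e-06). PLA2G7, a secreted phospholipase, was at 0, 0.439, 7.80, 9.04 and 2.76 CPM in sheep and 22.3 to 707 CPM with a median of 285 in rats, with no overlap (log2 fold change -5.70 ± 1.05, adjusted p = 7.17e-05).

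**Figure D3:**
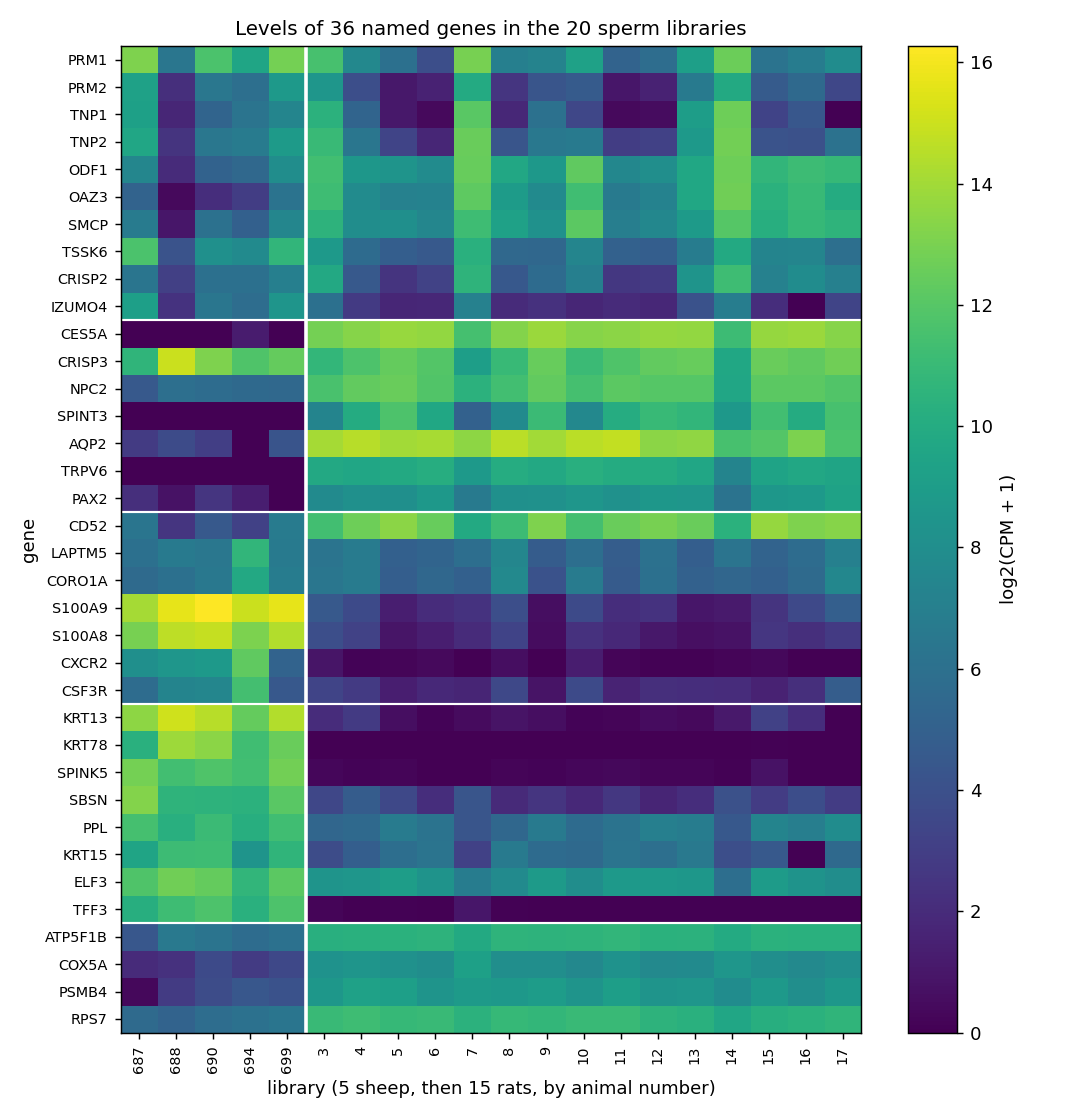
Levels of 36 genes as log2(CPM + 1) in the 5 sheep and then the 15 rat libraries, grouped by list. CES5A and AQP2 are high in the rat columns, and S100A9 and KRT13 in the sheep columns. Within each species the protamine and transition protein genes are brightest in sheep 687 and 699 and in rats 7 and 14.

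Leukocyte genes were higher in sheep for neutrophils and mixed for other cells. The 88 measured genes held 2.76, 8.14, 11.2, 6.96 and 7.63% in sheep and 0.314 to 1.56% with a median of 0.950% in rats, with no overlap. Of 86 tested, 40 were called higher in sheep and 15 higher in rat (median 1.23). Most of the sheep share was S100A8 and S100A9, which form calprotectin and are made by both neutrophils and squamous epithelium. S100A9 was at 17559, 51728, 78920, 32189 and 52167 CPM in sheep and 0.550 to 29.2 CPM with a median of 4.27 in rats (log2 fold change 13.35 ± 0.89, adjusted p = 5.97e-11). S100A8 was at 7816, 25983, 29840, 8592 and 21923 CPM in sheep and 0.471 to 14.2 CPM with a median of 3.09 in rats (log2 fold change 13.14 ± 0.84, adjusted p = 3.49e-11). Without this pair the neutrophil list held 0.0887, 0.239, 0.196, 1.92 and 0.0476% in sheep and 0.0175 to 0.314% with a median of 0.0627% in rats, and sheep 694 alone was above the rats.

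Of 22 neutrophil genes 14 were called higher in sheep and 2 higher in rat, and 13 and 3 without sheep 694. CXCR2, a chemokine receptor of neutrophils, was at 279, 375, 451, 5088 and 35.3 CPM in sheep and 0 to 1.44 CPM with a median of 0.150 in rats (log2 fold change 12.46 ± 1.06, adjusted p = 2.64e-09). CSF3R, the granulocyte growth factor receptor, was at 52.7, 161, 177, 2768 and 20.9 CPM in sheep and 0.811 to 26.3 CPM with a median of 3.45 in rats (log2 fold change 7.20 ± 0.80, adjusted p = 1.12e-07). Sheep 694 was the highest of all 20 libraries for both receptors, and sheep 699 the lowest sheep. CXCR2 did not overlap between species, and sheep 699 lay among the rats for CSF3R. IL1RN, an interleukin 1 antagonist that epithelium also makes, was at 255, 1075, 871, 7187 and 210.4 CPM in sheep and 0 to 25.4 CPM with a median of 5.05 in rats, with no overlap (log2 fold change 8.51 ± 0.82, adjusted p = 1.33e-08).

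Genes of all leukocytes gave 13 calls higher in sheep and 2 higher in rat among 19, but 7 and 3 without sheep 694. PTPRC, the surface phosphatase CD45, was at 96.2, 19.7, 16.9, 226 and 66.0 CPM in sheep and 9.84 to 91.3 CPM with a median of 19.7 in rats (log2 fold change 1.87 ± 0.51, adjusted p = 0.00274). LAPTM5, a lysosomal protein of blood cells, was at 61.9, 101, 87.5, 1699 and 98.0 CPM in sheep and 25.4 to 176 CPM with a median of 57.9 in rats (log2 fold change 3.03 ± 0.55, adjusted p = 6.01e-05). CORO1A, an actin regulator, was at 49.0, 64.0, 88.8, 919.9 and 114 CPM in sheep and 16.0 to 198 CPM with a median of 42.0 in rats (log2 fold change 2.26 ± 0.56, adjusted p = 0.00126). In each, sheep 694 was above every rat and most other sheep lay among the rats. Without sheep 694 PTPRC (1.19) and CORO1A (0.99) were not called. CD52, a glycoprotein of lymphocytes that epididymal epithelium also makes, was the reverse, at 80.7, 4.70, 22.1, 7.82 and 110.1 CPM in sheep and 947 to 12995 CPM with a median of 6128 in rats (log2 fold change -6.81 ± 0.88, adjusted p = 7.55e-07). Without it the list held 0.0699, 0.0815, 0.0717, 0.771 and 0.0965% in sheep and 0.0676 to 0.337% with a median of 0.157% in rats. LCP1, an actin bundler, was also higher in rat, at 177, 100.3, 129, 1145 and 126 CPM in sheep and 300.0 to 2128 CPM with a median of 1229.7 in rats (log2 fold change -1.4 ± 0.56, adjusted p = 0.0325), a call lost without sheep 687, 688, 690 or 699 (-1.36 to -1.2) and with RLE factors, upper quartile factors, the 5 CPM filter and DESeq2 (-0.54, -0.75, -0.92 and -0.54).

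Macrophage genes were split, 6 higher in sheep and 5 in rat of 16, and 4 and 5 relative to brain. CLEC7A, a receptor for fungal glucan, was at 121, 122, 106, 859.8 and 15.7 CPM in sheep and 0 to 21.1 CPM with a median of 2.31 in rats (log2 fold change 6.28 ± 0.76, adjusted p = 3.56e-07). ADGRE1, known as F4/80, was at 38.5, 31.6, 35.5, 418 and 4.76 CPM in sheep and 2.96 to 41.5 CPM with a median of 8.44 in rats (log2 fold change 3.39 ± 0.63, adjusted p = 7.21e-05). Both were highest in sheep 694. C1QA, a complement subunit of tissue macrophages, was higher in rat with no overlap, at 0, 1.79, 0, 0 and 3.53 CPM in sheep and 14.4 to 92.1 CPM with a median of 30.7 in rats (log2 fold change -3.89 ± 0.90, adjusted p = 0.000666). AIF1 was not called (log2 fold change -2.16 ± 1.24, adjusted p = 0.132). CD68 is listed at 0 in every sheep library, brain included.

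Of 20 lymphocyte genes 7 were called higher in sheep and 1 in rat, but 4 and 1 without sheep 688, 4 and 2 with plain totals or voom, and 4 and 5 relative to brain. PAX5, the B cell transcription factor, was at 151, 31.2, 22.5, 73.2 and 124 CPM in sheep and 0.288 to 6.83 CPM with a median of 1.54 in rats (log2 fold change 5.61 ± 0.60, adjusted p = 5.02e-08). It did not overlap between the species. CD8A, of cytotoxic T cells, was highest in sheep 688, at 0, 116, 19.1, 2.26 and 16.0 CPM in sheep and 0 to 27.3 CPM with a median of 5.64 in rats (log2 fold change 3.36 ± 0.93, adjusted p = 0.00335), and not called without it (0.45), with plain totals (1.77) or with voom (1.2). CD4 had 7 counts in all sheep libraries and was at 10.7 to 77.7 CPM with a median of 26.8 in the rats (log2 fold change -6.79 ± 0.94, adjusted p = 2.02e-06). Of 9 mast cell and eosinophil genes 5 were called higher in rat and 0 in sheep (0 in sheep also at an unadjusted p of 0.05, with DESeq2 and with voom). GATA2, a factor of mast cells and of some epithelia, was at 8.24, 0.718, 0.433, 0 and 1.08 CPM in sheep and 43.1 to 169 CPM with a median of 142 in rats (log2 fold change -5.67 ± 0.70, adjusted p = 4.05e-07). ALOX15, a lipoxygenase of eosinophils, was at 0, 0.159, 0, 1.74 and 1.69 CPM in sheep and 18.0 to 546 CPM with a median of 63.6 in rats (log2 fold change -6.69 ± 1.03, adjusted p = 7.84e-06). CPA3, a mast cell protease, was at 0, 0, 0, 0.869 and 0 CPM in sheep and 0.460 to 31.6 CPM with a median of 4.14 in rats (log2 fold change -5.07 ± 1.36, adjusted p = 0.00264). GATA2 and ALOX15 did not overlap between species.

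Stratified squamous epithelium had the largest median difference of the cell lists. The 37 measured genes of its upper layers held 3.45, 9.26, 6.04, 1.96 and 5.54% in sheep and 0.0310 to 0.523% with a median of 0.255% in rats, with no overlap. Of 30 tested, 26 were called higher in sheep and 2 higher in rat. Of the same 30, 18 were called higher in sheep with no overlap, beside 7.57% of all genes tested. The median fold change was 9.31. KRT13, the keratin of moist stratified epithelium, was at 11523, 35058, 23872, 5455 and 21980 CPM in sheep and 0 to 7.84 CPM with a median of 0.510 in rats (log2 fold change 14.61 ± 1.15, adjusted p = 6.74e-10). Its partner KRT4 was at 1052, 6198, 5438, 1032 and 3262 CPM in sheep and 0 to 4.23 CPM with a median of 0.0300 in rats (log2 fold change 14.22 ± 1.4, adjusted p = 2.08e-08). Sheep 688 was highest and 694 lowest for both, and each sheep was above every rat. SPINK5, an inhibitor of skin proteases, was at 7639, 2590.5, 3609.9, 2586 and 7030 CPM in sheep and 0 to 0.715 CPM with a median of 0.146 in rats (log2 fold change 15.27 ± 0.77, adjusted p = 9.2e-13). SBSN, suprabasin, was at 9672, 1559, 1451, 1420.5 and 4338 CPM in sheep and 2.2 to 25.1 CPM with a median of 6.31 in rats (log2 fold change 9.09 ± 0.57, adjusted p = 2.6e-11). These 2 were highest in sheep 687 and did not overlap, and rat Sbsn overlaps the spermatid gene Gapdhs.

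The genes of the cornified layers also headed all genes higher in sheep. KRT78, a keratin of these layers (rat chr7:134952877-134960727), was at 1303, 14893, 10909, 2526 and 5902 CPM in sheep and had 3 counts in all rats, a ratio of 422220 to 5983300 by the exact Poisson interval of those counts. CRNN, cornulin, was at 173, 1128, 180.3, 435 and 983 CPM in sheep and 0 counts in the rats, at least 100690-fold higher against 3 counts over the rat group. CNFN, cornifelin, was at 987, 4151, 2276, 1065 and 4384 CPM in sheep with 4 counts in the rats (adjusted p = 1.65e-13). CSTA, cystatin A of the cornified envelope, was at 304, 3744, 1278, 557 and 903 CPM with 9 rat counts (adjusted p = 1.08e-11). NCCRP1 was at 463, 7905, 2870.5, 979 and 2466 CPM with 37 rat counts (adjusted p = 3.48e-11). Sheep 687 was the lowest sheep for all 5 of these genes. S100A7A was at 106, 807, 13.9, 105 and 58.4 CPM in sheep and at 0 in rat sperm and rat brain. Brain cannot tell whether this 0 is an absence or a gap in the rat listing, so no fold is given.

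Genes of junctions and of the basal layer were split, 13 higher in sheep and 5 higher in rat of 24 (median 2.06). PPL, periplakin, was at 2829, 1207, 2212, 1177 and 2476 CPM in sheep and 18.4 to 241 CPM with a median of 73.5 in rats (log2 fold change 5.08 ± 0.41, adjusted p = 1.09e-09). KRT15, a basal keratin, was at 727, 2319, 2366, 342 and 1566 CPM in sheep and 0 to 100.2 CPM with a median of 45.5 in rats (log2 fold change 5.99 ± 0.77, adjusted p = 7.61e-07). KRT17 was at 167, 765, 408, 1205 and 1287 CPM in sheep and 0 to 8.03 CPM with a median of 2.7 in rats (log2 fold change 8.66 ± 0.80, adjusted p = 7.06e-09). None of the 3 overlapped. DSP, desmoplakin of epithelial junctions, was higher in rat, at 40.7, 62.9, 53.7, 34.2 and 65.1 CPM in sheep and 81.5 to 374 CPM with a median of 311 in rats (log2 fold change -1.59 ± 0.41, adjusted p = 0.00170). KRT5, the main basal keratin, was also higher in rat, at 6.24, 0.199, 0, 2.09 and 2.61 CPM in sheep and 0 to 165 CPM with a median of 61.5 in rats (log2 fold change -4.65 ± 1.18, adjusted p = 0.00164). DSP did not overlap, and KRT5 did. Neither call held throughout: DSP was -0.86 with RLE factors and -0.86 with DESeq2, under the threshold of 1, and KRT5 was not called with voom (-6.08).

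Simple and glandular epithelium was present in both species through different genes, 10 higher in sheep and 6 in rat of 17. TFF3, a trefoil peptide of mucus, was at 1193, 2405, 3376, 1296 and 3379.7 CPM in sheep and 0 to 0.982 CPM with a median of 0 in rats (log2 fold change 15.34 ± 1.18, adjusted p = 5.14e-10). PIGR, the IgA transporter, was at 1024, 2324, 1450.2, 1255 and 1501 CPM in sheep and 0 to 1.55 CPM with a median of 0.457 in rats (log2 fold change 12.51 ± 0.89, adjusted p = 1.55e-10). ELF3, an epithelial transcription factor, was at 3575, 6976, 5561, 1664 and 4672 CPM in sheep and 57.7 to 534 CPM with a median of 345 in rats (log2 fold change 4.71 ± 0.44, adjusted p = 8.9e-09). TFF3, PIGR and ELF3 were higher in sheep without overlap. KRT19 was at 1077, 5618, 5281, 965 and 3323 CPM in sheep and 141 to 1040.2 CPM with a median of 863 in rats, with overlap (log2 fold change 3.11 ± 0.47, adjusted p = 5.54e-06). KRT8 was higher in rat, at 6.49, 1.08, 1.30, 6.78 and 18.1 CPM in sheep and 213 to 1478 CPM with a median of 968 in rats (log2 fold change -6.71 ± 0.66, adjusted p = 1.79e-08). Its partner KRT18 was at 6.24, 0.518, 1.30, 0.521 and 2.15 CPM in sheep and 65.5 to 373 CPM with a median of 312 in rats (log2 fold change -6.70 ± 0.56, adjusted p = 1.7e-09). EPCAM, of epithelial adhesion, was at 14.0, 6.30, 19.1, 4.69 and 19.0 CPM in sheep and 198 to 1106 CPM with a median of 778 in rats (log2 fold change -5.39 ± 0.48, adjusted p = 3.96e-09). SPINT2, a protease inhibitor, was at 107, 229, 226, 71.1 and 190.3 CPM in sheep and 405 to 2642 CPM with a median of 1765 in rats (log2 fold change -2.45 ± 0.50, adjusted p = 0.000186). These 4 rat-high genes did not overlap.

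**Figure D4:**
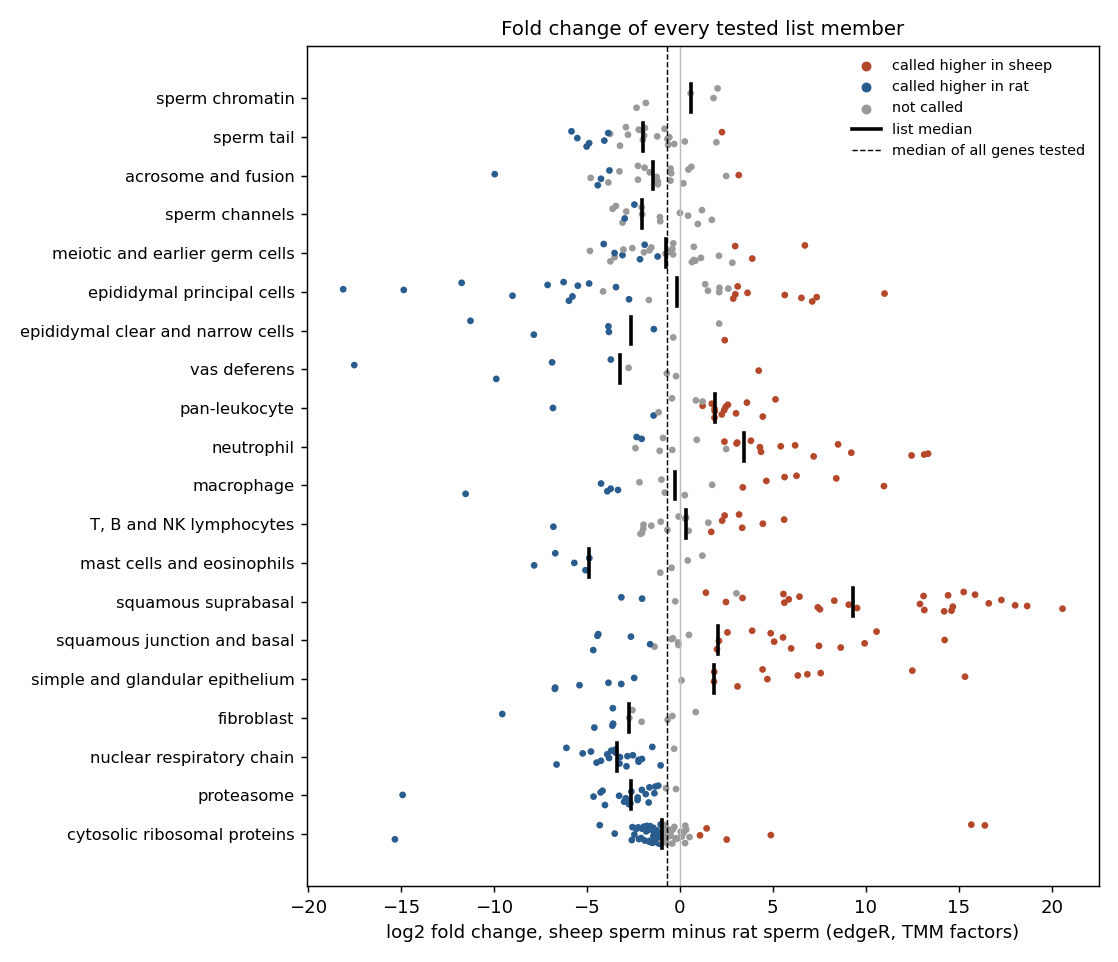
Fitted log2 fold change, sheep minus rat, of every tested member of 20 lists, with called genes in colour, list medians as bars and the median of all genes as a dashed line. The median bar of the squamous suprabasal list lies to the right of the line, and those of the mast cell, vas deferens, respiratory chain and proteasome lists to its left.

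Genes of energy supply and protein turnover were lower in sheep. Of 22 respiratory chain genes 21 were called higher in rat, and of 24 proteasome genes 22, with 0 higher in sheep in either (0 also at an unadjusted p of 0.05, with DESeq2 and with voom). With RLE factors the counts were 19 and 17. The respiratory chain list held 0.0365, 0.0413, 0.0426, 0.0295 and 0.0514% in sheep and 0.403 to 0.650% with a median of 0.563% in rats. In brain it held 0.392% in sheep and 0.588% in rat. The proteasome list held 0.0549, 0.0375, 0.0685, 0.0534 and 0.0885% in sheep and 0.347 to 0.501% with a median of 0.438% in rats, and 0.215% and 0.323% in brain. ATP5F1B, the catalytic subunit of ATP synthase, was at 20.0, 92.7, 75.0, 53.5 and 65.1 CPM in sheep and 925 to 1635 CPM with a median of 1328 in rats (log2 fold change -3.47 ± 0.47, adjusted p = 1.56e-06). NDUFA4, of the chain, was at 4.5, 1.32, 1.30, 2.09 and 2.92 CPM in sheep and 75.9 to 514 CPM with a median of 358 in rats (log2 fold change -6.62 ± 0.48, adjusted p = 2.01e-10). PSMB4, of the proteasome core, was at 0.250, 6.14, 12.6, 20.2 and 16.1 CPM in sheep and 240.2 to 629.7 CPM with a median of 394 in rats (log2 fold change -4.63 ± 0.60, adjusted p = 7.55e-07). None of these 3 overlapped, nor did ATP5F1A (log2 fold change -3.68 ± 0.39, adjusted p = 5.13e-08), COX5A (log2 fold change -4.77 ± 0.45, adjusted p = 8.61e-09) or PSMD2 (log2 fold change -1.63 ± 0.26, adjusted p = 1.56e-05). PSMD2 was under the threshold of 1 with RLE factors, upper quartile factors and DESeq2 (-0.77, -0.92 and -0.77).

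Calls of ribosomal protein genes leaned to the rat, though not under every scaling. The list held 1.48, 0.645, 1.31, 1.03 and 1.81% in sheep and 2.25 to 4.32% with a median of 3.20% in rats, with no overlap. Of 79, 6 were called higher in sheep and 38 higher in rat. The counts were 7 and 18 with upper quartile factors, 5 and 59 with plain totals, and 13 and 13 with RLE factors or DESeq2. RPS7 was at 47.7, 36, 55.0, 66.2 and 77.9 CPM in sheep and 788 to 2404 CPM with a median of 1722 in rats (log2 fold change -4.30 ± 0.37, adjusted p = 2.62e-09), and RPS24 at 1754, 209, 600.3, 496 and 1428 CPM in sheep and 252 to 768 CPM with a median of 398 in rats (log2 fold change 1.45 ± 0.28, adjusted p = 0.000110). Near-identical copies of such genes make these counts uncertain.

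**Figure D5:**
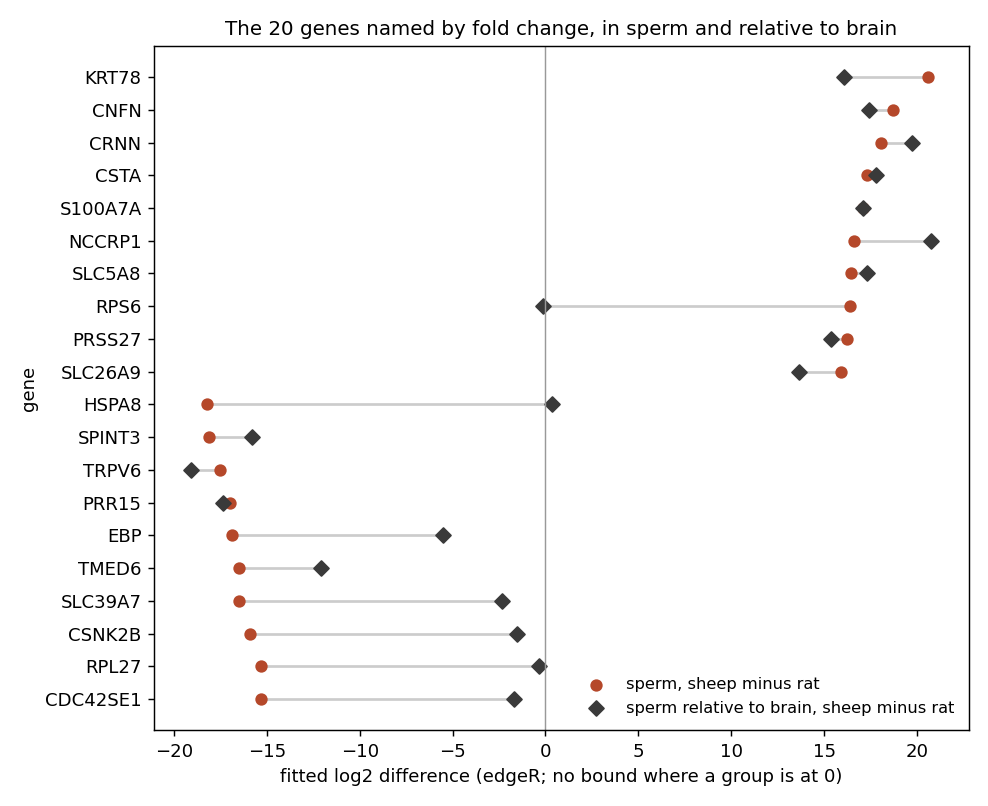
Fitted log2 difference between sheep and rat for the 10 genes with the largest fold change in each direction, in sperm (circles) and in sperm relative to the brain of the same species (diamonds). RPS6, HSPA8, SLC39A7, CSNK2B, RPL27 and CDC42SE1 lie between -2.35 (SLC39A7) and 0.37 (HSPA8) relative to brain, and the squamous and duct genes far from 0.

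The largest fold changes, among genes with at least 10 CPM in the higher species and no overlap, were of 2 kinds. Genes higher in sheep were KRT78, CNFN, CRNN, CSTA, S100A7A and NCCRP1 as above, with 4 more. PRSS27, a protease of stratified epithelium, was at 1298, 20418, 15005, 6073 and 5309 CPM in sheep and 0 to 0.813 CPM with a median of 0.243 in rats (log2 fold change 16.22 ± 1.05, adjusted p = 3.79e-11). SLC5A8, a transporter of short fatty acids, was at 390.1, 1239, 431, 210.1 and 389 CPM in sheep with 5 counts in the rats (adjusted p = 4.58e-13). SLC26A9, a chloride transporter, was at 104, 1238, 808, 418 and 747 CPM with 10 (adjusted p = 1.97e-12). Genes higher in rat were SPINT3 and TRPV6, and PRR15, with 0 counts in sheep and 125 to 1025 CPM with a median of 612 in rats, at least 8578-fold higher. Relative to brain, SLC26A9 had the smallest difference of these sheep-high genes with brain counts in both species, 13.62, and SPINT3 the smallest of the rat-high ones, -15.81.

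For the other 8 the gene is at 0 in brain as well. RPS6 had 0 counts in every rat sperm and brain library. HSPA8, EBP, TMED6, SLC39A7, CSNK2B, RPL27 and CDC42SE1 had 0 in every sheep sperm and brain library. HSPA8, a chaperone of all cells, was at 338 to 2047 CPM with a median of 1382 in rat sperm and a mean of 2115 CPM in rat brain, and its difference relative to brain was 0.37. RPS6 had -0.15 and RPL27 -0.32. Where brain of the other species holds the gene well above 0, a 0 of this kind is taken as a listing. No fold is given for any of the 8. EBP was at 119.7 to 814 CPM with a median of 616 in rat sperm and 14.5 CPM in rat brain, and TMED6 at 9.15 to 1250.2 CPM with a median of 316 and 0.117. At that brain level, the 0 of TMED6 in sheep brain cannot tell whether its 0 in sheep sperm is a listing or an absence. In all, 21 genes called higher in sheep and 67 called higher in rat were at 0 in every library of the other species.

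Relative to brain, in a fit with a species by tissue term, 3616 of 15172 genes (23.8%) were called higher in sheep and 5821 (38.4%) higher in rat. The brain references are unlike, 10 summed regions per sheep and the brain library of each male rat, and the effect of this was not tested. Of the genes called in sperm, 2531 of 3395 and 4524 of 5281 were called the same way. Squamous genes gave 40 and 8 of 60 tested, epididymis genes 10 and 21 of 46, leukocyte genes 33 and 18 of 88, and germ cell genes 4 and 28 of 96. These counts are to be read beside the 23.8% and 38.4% of all genes. The direction turned for AQP9 (3.20), CTSL (5.76), CRISP3 (-0.67), PTPRC (-0.37), GPX5 (-1.06) and SLC26A8 (0.41). With the animal as a replicate block, since brain and sperm came from the same animals, the germ cell counts were 20 and 20 and the leukocyte counts 25 and 18.

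Genes abundant in both species were mostly housekeeping genes. By the smaller group mean, without mitochondrial and ribosomal protein genes, they included FTH1, CRISP3, UBB, ACTG1, BASP1, CALR, TPT1, PRM1 and ACTB. PRM1 is among them through a rat mean that rats 7 and 14 raise, and its rat median, given above, is far lower. FTH1, the ferritin heavy chain, was at 584, 9068, 11017, 5242 and 3339.6 CPM in sheep and 1707 to 9643 CPM with a median of 4736 in rats (log2 fold change 1.28 ± 0.52, adjusted p = 0.0357, and 0.24 with plain totals). UBB, a polyubiquitin gene, was at 658, 14134, 7010, 2758 and 3770.2 CPM in sheep and 2687 to 6048 CPM with a median of 3288 in rats (log2 fold change 1.95 ± 0.51, adjusted p = 0.00212). CALR (log2 fold change 1.17 ± 0.32, adjusted p = 0.00309) and TPT1 (log2 fold change 1.49 ± 0.41, adjusted p = 0.00321) were also called higher in sheep. ACTG1 (log2 fold change 0.43 ± 0.57, adjusted p = 0.520), ACTB (log2 fold change -0.32 ± 0.47, adjusted p = 0.565) and BASP1 (log2 fold change 1.11 ± 0.51, adjusted p = 0.0624) were not called. BASP1 was at 2763, 577, 709, 12288 and 421 CPM in sheep and 358 to 3028 CPM with a median of 2009.9 in rats, highest in sheep 694, and was called higher in sheep without sheep 688, 690 or 699 (1.25 to 1.38). Without sheep 688 the calls of FTH1 (0.44), UBB (0.37), CALR (0.97) and TPT1 (0.66) were lost, and without sheep 690 that of FTH1 (1.14). With plain totals UBB (0.67), CALR (0.54) and TPT1 (0.49) were not called. Each of these named genes overlapped between the species.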

How the data were processed

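Sperm libraries of 5 sheep and 15 rats were compared. The authors deposited raw read counts per gene, made with STAR alignment to GRCr8 (rat) or ARS-UI_Ramb_v3.0 (sheep) and Rsubread counting, per the series' design text and the labels. The sources used here do not give the strand and multi-mapping settings. From these counts, symbols that occur once per species after upper-casing were joined, without a check of orthology. Counts were fitted with edgeR 4.0.16 (R 4.3.3, limma 3.58.1): TMM factors, a low-count filter by group, a robust quasi-likelihood test and Benjamini-Hochberg adjustment over all genes tested. SE was computed back from the test statistic. The sheep and the rats are separate animals, per the labels.

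Shared-symbol depth was 2.31 to 25.1 M counts (M, 1000000) in sheep and 9.66 to 42.3 M in rat, so 3 counts is 0.12 to 1.30 CPM in a sheep library. Tested on simulated data for this comparison (14146 genes), the fit recovered 53 of 100 genes changed by 2 on the log2 scale and 70 of 100 changed by 4, and called 0.0502% of unchanged genes. Few genes were changed in that simulation, equally in both directions. It therefore does not measure errors that come from the choice of scaling. Alternatives were DESeq2 1.42.0, voom, other scalings and filters, each library left out, and a fit relative to brain with and without a block on the animal. For that fit the counts of 10 brain regions were summed per sheep, and each male rat had its brain library. Another 14 columns, of female rat brain, were not used.

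The text names the 10 most changed genes per direction, genes abundant in both species, 4 members per cell type list by level, PRM1, PRM2, TNP1 and TNP2. PRM3, TSSK6, ACR, CATSPERB, SLC26A8, AKAP3, ROPN1L, CIMAP1A and the other list members outside this rule were named after their values were seen. The members and lists were chosen with earlier results of these data known. Some genes that this rule names are not reported here. Counting intervals cover counting error only.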

Additional observations from a re-analysis of the deposited data

Results flagged for a closer look

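In each group of 4 to 10 samples, here the 5 sheep, the highest and lowest library was compared with its neighbour by Dixon's ratio, over 36 lists, 110 genes and 5 library measures. By chance about 1 in 20 groups of normal values is picked out, and 6, 26 and 1 were. These levels need not be normal and the genes are not independent, so the counts are not set against that rate. For CES5A, CPA3, ALAS2 and CD4 all other sheep were at 0, which fixes the ratio at 1.

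Sheep 694 was far above the other sheep for leukocyte genes. The pan-leukocyte list held 0.772% and the macrophage list 0.172% of its counts. Its levels were 1145 CPM for LCP1, 1699 for LAPTM5, 920 for CORO1A, 7187 for IL1RN, 5088 for CXCR2, 2768 for CSF3R, 860 for CLEC7A and 418 for ADGRE1. It was also highest for the endothelium list at 0.0366%, PECAM1 at 338 CPM, BASP1 at 12290, SLC26A8 at 18.4, and at low levels for CES5A (1.39), CPA3 (0.869) and ALAS2 (0.869).

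Sheep 688 was far above the other sheep in shared-symbol counts (25.1 M, M being 1000000), in the epididymal principal cell list (3.24%), in the epididymis lists together (3.29%), and in CRISP3 at 32230 CPM. It was likewise highest for CSTA (3744 CPM), S100A7A (807), SLC5A8 (1239), CD8A (116) and CD4 (0.279). That CD4 level would be under 3 counts in each of the other, shallower sheep libraries, where CD4 was at 0. Sheep 687 was picked out for TNP1 (603 CPM), GATA2 (8.24), KRT18 (6.24), AQP9 (12.5) and MYLK (6.74), sheep 690 for the urothelium list (0.0165%), and sheep 699 for ACR (1.84 CPM).

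The difference between species in sperm was itself tested against that in brain, and 9437 genes passed that test.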

How the results depend on the processing

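Calls of the squamous lists in sheep, of the epididymis lists in rat and of the leukocyte lists in rat stayed within 1.5 times their count in every setting run. The cause was not tested for any change given here. DESeq2 called 5166 genes higher in sheep. Germ cell genes higher in sheep numbered 8 with upper quartile factors, 10 with DESeq2, 35 with voom and 22 without rats 7 and 14, and 3 to 8 with 1 library left out. Those higher in rat numbered 10 with a 5 CPM filter, 10 with DESeq2, 8 with RLE factors, 8 with upper quartile factors, 4 with voom, 11 without rats 7 and 14, 28 relative to brain, and 11 to 18 with 1 library left out. Epididymis genes higher in sheep numbered 5 with the 5 CPM filter, and squamous genes higher in rat 4 with voom.

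Detection at 5 CPM gave 5099 genes in both species and 3788 in rat alone. With 1 library left out, 819 to 1353 were in sheep alone and 3372 to 3939 in rat alone. The between-species correlation was 0.232 over genes detected in both. Mean sheep shares on TMM-scaled totals were 2.63% (epididymis), 11.9% (leukocyte) and 10.6% (squamous), and 1.72% (leukocyte) and 1.53% (squamous) when taken of all counts. Without the member with the most counts, they were 2.29% (epididymis, rat), 2.68% (leukocyte, sheep), 0.327% (leukocyte, rat) and 0.138% (squamous, rat).

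The sperm comparison has no pairing, since sheep and rats are different animals. In the fit relative to brain with the animal as a replicate block, 20 germ cell genes and 25 leukocyte genes were higher in sheep. Directions that turned there were PRM3 (-0.55), TNP2 (6.04), SPESP1 (2.92), SLC26A8 (0.067), MAEL (3.46), CRISP3 (-2.59), CTSL (5.00), PTPRC (-0.31), LAPTM5 (-0.14), CD8A (-0.33), ACTG1 (-0.39), RPS6 (-0.24), HSPA8 (0.47), GPX5 (-0.39) and AQP9 (3.04). Relative to brain without the block they were PRM3 (-0.58), TNP2 (2.41), SPESP1 (0.057), SLC26A8 (0.41), CRISP3 (-0.67), CTSL (5.76), PTPRC (-0.37), RPS6 (-0.15), HSPA8 (0.37), GPX5 (-1.06) and AQP9 (3.20). With voom, TNP1 (4.05), TNP2 (2.83), CRISP2 (1.90), SPESP1 (5.84), MAEL (4.78), TDRD6 (2.43), AIF1 (0.18), ACTG1 (-0.69) and BASP1 (-0.58) turned. Without rats 7 and 14, TNP1 (0.34), TNP2 (0.59) and SPESP1 (1.47) turned. SPESP1 turned with RLE (0.36), DESeq2 (0.36) and upper quartile factors (0.46), ACTB with RLE (0.41), DESeq2 (0.41), upper quartile factors (0.19) and the 5 CPM filter (0.094), ACTG1 with plain totals (-0.77), and CATSPERZ with plain totals (-0.076), no filter (-0.036) and without rats 16 and 17 (-0.18). With 1 library left out, SPESP1 ran from -1.14 to 0.32, CATSPERG from -0.11 to 1.00, CATSPERZ from -0.52 to 0.60, ACTG1 from -0.97 to 0.73 and BASP1 from -0.33 to 1.38. Of 4067 alternative values of 120 genes, 3831 kept direction and side of the threshold.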

Other observations

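Several other genes differed between the species, with overlap for RBFOX3 and SERPINA1. GRIN1, a glutamate receptor subunit, was at 185, 29.4, 88.4, 41.0 and 115 CPM in sheep and 0 to 4.68 CPM with a median of 1.19 in rats, with no overlap (log2 fold change 6.11 ± 0.55, adjusted p = 4.46e-09). RBFOX3, a splicing factor known from neurons, was at 185, 1.08, 7.80, 24.0 and 156 CPM in sheep and 0 to 2.62 CPM with a median of 0.388 in rats (log2 fold change 6.87 ± 0.88, adjusted p = 7.41e-07). Both were highest in sheep 687 and lowest in sheep 688, the order also seen for PRM1. SERPINA1, a protease inhibitor of plasma and mucosa, was at 418, 4618, 4029, 715 and 1038 CPM in sheep and 17.8 to 1007 CPM with a median of 40.3 in rats (log2 fold change 4.43 ± 0.93, adjusted p = 0.000274). CIDEA, a protein of lipid droplets, was at 123, 525, 504, 93.3 and 271 CPM in sheep and 0 to 70.2 CPM with a median of 2.77 in rats, with no overlap (log2 fold change 5.57 ± 1.03, adjusted p = 7.94e-05).

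Genes of muscle and of red cells were higher in rat. MYLK, the myosin kinase of smooth muscle, was at 6.74, 0.199, 1.30, 1.39 and 0 CPM in sheep and 61.1 to 273 CPM with a median of 232 in rats, with no overlap (log2 fold change -6.63 ± 0.72, adjusted p = 7.66e-08). ALAS2, the first enzyme of haem synthesis in red cells, was at 0, 0, 0, 0.869 and 0 CPM in sheep and 20.6 to 681 CPM with a median of 139.6 in rats, with no overlap (log2 fold change -9.75 ± 1.38, adjusted p = 2.82e-06). The ALAS2 difference was not called with voom (-8.20). Of 11 fibroblast genes 5 were called higher in rat, but 3 with RLE factors and 0 with voom. Of 7 endothelium genes 3 were called higher in sheep, but 2 without sheep 694 and 0 relative to brain. PECAM1, an endothelial and leukocyte adhesion protein, lost its call without sheep 694 (0.46).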
